A study of Mus musculus with 4 samples.

Results

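The genes Ccl5, Ccl3, Ccl4, Xcl1 and Cxcl10 encode secreted chemokines that T cells can make, and they were examined here as a group chosen by symbol: 5 of 55536 mouse genes in the deposited tables. The choice was made with the levels and the spread of these genes in the same libraries already known. Both are therefore given as description, and nothing is read from a test of them. The RNA came from spleen T cells of male B6CASTF1/J mice, F1 animals whose mother was C57BL/6 and whose father was CAST Eij, aged 66 days, and the labels name the antigen CD3 for these cells. The 4 biological replicates form 1 group and are numbered as libraries 1 to 4, each made from 300 ng of total RNA with ERCC spike-in RNA and a directional kit. The labels report no treatment, no stimulation and no second condition. They give the 4 samples the same donor identifier and do not state that each came from a separate animal, so every SD covers the spread between these samples, which may be technical. All 5 symbols matched 1 gene identifier each in both deposited quantifications.

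Chemokines are small proteins that guide cells by binding G protein-coupled receptors. Ccl5, Ccl3 and Ccl4 belong to the CC class, whose leading cysteines are adjacent, and attract activated T cells and monocytes. Xcl1, also called lymphotactin, lacks one of the paired cysteines and attracts dendritic cells that carry Xcr1. Cxcl10 belongs to the CXC class, is induced by interferons and binds Cxcr3. Memory CD8 T cells and natural killer cells are known to hold Ccl5 RNA at rest, whereas Ccl3, Ccl4 and Xcl1 are best known as genes that T cells switch on soon after their receptor is engaged.

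Upstream sequences are shown for Ccl3, Xcl1 and Cxcl10, so that their motifs can be set side by side. Ccl3, like Ccl5, was higher in libraries 3 and 4 than in libraries 1 and 2, but on 4 to 16 counts per library. Xcl1 and Cxcl10 did not follow this order. The 250 bases before the RefSeq start of each gene were read 5′ to 3′ along the gene from the RefSeq promoter table (GRCm38.p6), which matched 3 of the 5 symbols. They lie on the minus strand at chr11:83649379-83649628 for Ccl3, chr1:164935523-164935772 for Xcl1 and chr5:92348890-92349139 for Cxcl10, and capitals mark motif matches.
Ccl3: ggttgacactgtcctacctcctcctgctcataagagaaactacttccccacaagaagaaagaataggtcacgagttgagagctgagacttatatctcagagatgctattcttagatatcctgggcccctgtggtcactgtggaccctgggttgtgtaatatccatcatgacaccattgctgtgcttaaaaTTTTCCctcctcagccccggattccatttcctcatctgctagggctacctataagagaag
Xcl1: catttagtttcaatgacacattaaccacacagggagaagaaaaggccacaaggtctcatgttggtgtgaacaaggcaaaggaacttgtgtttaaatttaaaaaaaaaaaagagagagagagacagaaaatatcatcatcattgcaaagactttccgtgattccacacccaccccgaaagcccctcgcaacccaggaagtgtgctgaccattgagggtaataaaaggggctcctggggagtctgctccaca
Cxcl10: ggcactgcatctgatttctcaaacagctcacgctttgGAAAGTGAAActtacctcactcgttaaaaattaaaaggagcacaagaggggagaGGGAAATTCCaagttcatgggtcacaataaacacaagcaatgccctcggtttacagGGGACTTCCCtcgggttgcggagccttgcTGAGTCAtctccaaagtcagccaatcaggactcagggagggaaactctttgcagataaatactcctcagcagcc
The motifs searched on both strands were the NF-kappaB consensus, the interferon-stimulated response element, TGANTCA for AP-1, GGAAAA for NFAT and AGGTGTGA for T-box factors. The Ccl3 window held 1 match, the NFAT letters on the opposite strand at -60 to -55 relative to the start, and 20.4% of all 32851 promoter windows of this length hold such a match. The Cxcl10 window held 4 matches. The NF-kappaB consensus, present in 3.90% of windows, lay at -159 to -150 and at -103 to -94. The interferon element, present in 2.98% of windows, lay at -213 to -204, and the AP-1 letters, present in 6.75%, at -74 to -68. The Xcl1 window held none of these letters. The T-box letters occur in 1.12% of windows. A narrower form of the NF-kappaB motif, present in 0.356% of windows, matched none of these 3 windows, and the consensus was added to the search after the windows had been seen. These are matches of letters only.

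Ccl5, also known as RANTES, was the most abundant of the 5 genes in every library. It lies on chromosome 11 between 83525778 and 83530518 on the minus strand in mm10. It had 32.2, 43.1, 73.1 and 55.9 TPM (a level relative to library size and transcript length) in libraries 1 to 4, and a mean of 51.1 ± 17.6 TPM (SD, n = 4). Library 3 was highest and library 1 lowest, and the exact 95% Poisson intervals of these libraries, 67.0 to 79.6 TPM and 28.1 to 36.6 TPM, did not overlap. Such intervals cover counting error only. No source used here mentions tags that mark PCR copies, so the intervals may be too narrow even for that. The values rest on 229, 330, 528 and 355 expected counts. The ratio of library 3 to library 1 was 2.27 in TPM, with a 95% interval for counting error of 1.94 to 2.67. It was 2.16 when counts were divided by spike-in counts. Among all mouse genes Ccl5 took rank 1391 by mean TPM, and it made up 77.7% ± 3.88 of the summed TPM of the 5 chemokines (SD, n = 4). In bulk RNA, fewer cells with Ccl5 and less Ccl5 RNA per cell cannot be told apart.

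**Figure D1:**
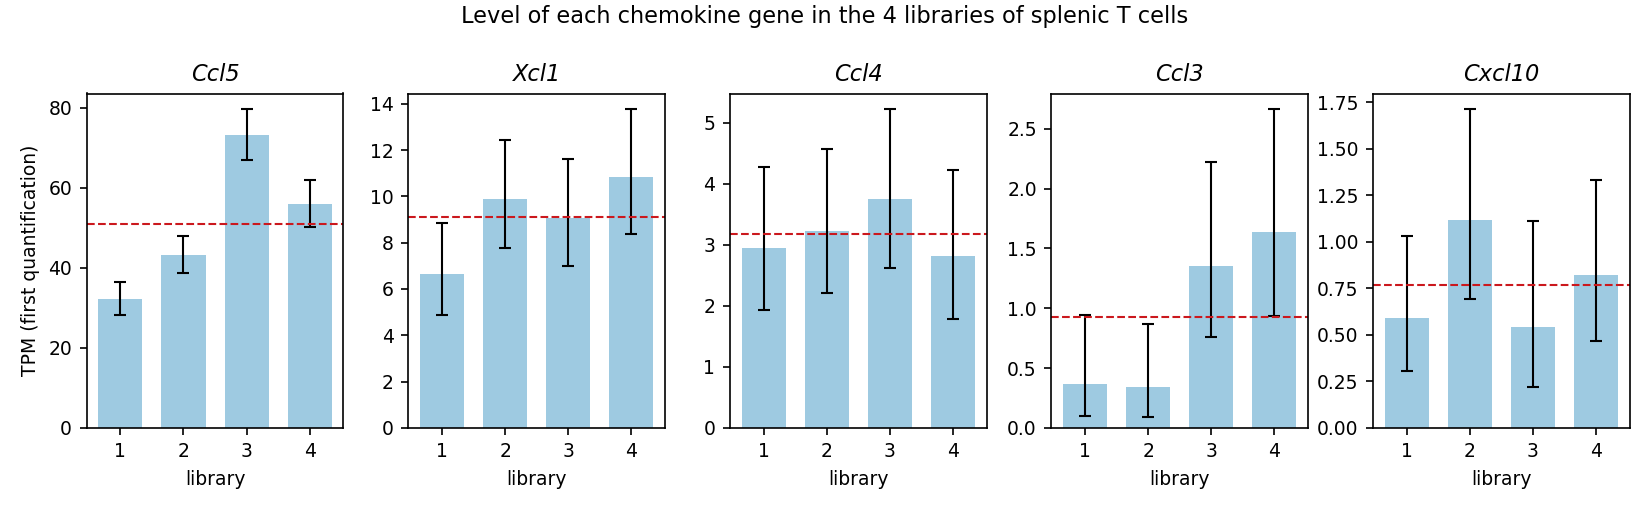
Bars give the deposited TPM of each chemokine gene in libraries 1 to 4, error bars the exact 95% Poisson interval of its count on the TPM scale, and dashed lines the mean of 4 libraries; each panel has its own axis from 0. Ccl5 stood between 32.2 and 73.1 TPM and the other genes at or under 10.8 TPM.

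Xcl1, on chromosome 1 between 164931644 and 164935527, came next. It had 6.63, 9.90, 9.08 and 10.8 TPM in libraries 1 to 4, from 46, 74, 64 and 67 counts, with a mean of 9.11 ± 1.80 TPM (SD, n = 4). Library 1 was lowest, as for Ccl5, and the counting intervals of all 4 libraries overlapped. The ratio of library 4 to library 1 was 1.63, with a counting interval of 1.11 to 2.43.

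Ccl4, which encodes MIP-1 beta and lies on chromosome 11 between 83662584 and 83664683, had 2.94, 3.23, 3.75 and 2.81 TPM in libraries 1 to 4, from 27, 32, 35 and 23 counts. Its mean was 3.18 ± 0.417 TPM (SD, n = 4), and the counting intervals of all 4 libraries overlapped. Ccl3, which encodes MIP-1 alpha and is its neighbour between 83647844 and 83649355, had 0.370, 0.340, 1.35 and 1.64 TPM from 4, 4, 15 and 16 counts, with a mean of 0.925 ± 0.669 TPM. Libraries 3 and 4 were both above libraries 1 and 2. Only libraries 2 and 4 had counting intervals that did not overlap, at 0.0926 to 0.871 and 0.937 to 2.66 TPM. The ratio of library 4 to library 2 was 4.82 with a wide counting interval of 1.56 to 19.8. For Ccl4 the ratio of library 3, its highest, to library 4, its lowest, was 1.33, and its counting interval of 0.767 to 2.37 includes equal levels.

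Cxcl10, on chromosome 5 between 92346638 and 92348889, was the lowest of the group. It had 0.590, 1.12, 0.540 and 0.820 TPM in libraries 1 to 4, from 12, 21, 7 and 16 counts, and a mean of 0.768 ± 0.265 TPM (SD, n = 4). Library 2 was highest and library 3, where Ccl5 peaked, lowest, and their ratio of 2.07 in TPM had a counting interval of 0.849 to 5.78. The same ratio was 2.89 in TMM-scaled counts and 4.63 in the TPM of the second deposited quantification, so its size depends on the scale. In order of mean TPM the genes were Ccl5, Xcl1, Ccl4, Ccl3 and Cxcl10. The ranges of Ccl5, Xcl1 and Ccl4 did not overlap each other, nor did those of Ccl4 and Ccl3, whereas those of Ccl3 and Cxcl10 did.

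**Figure D2:**
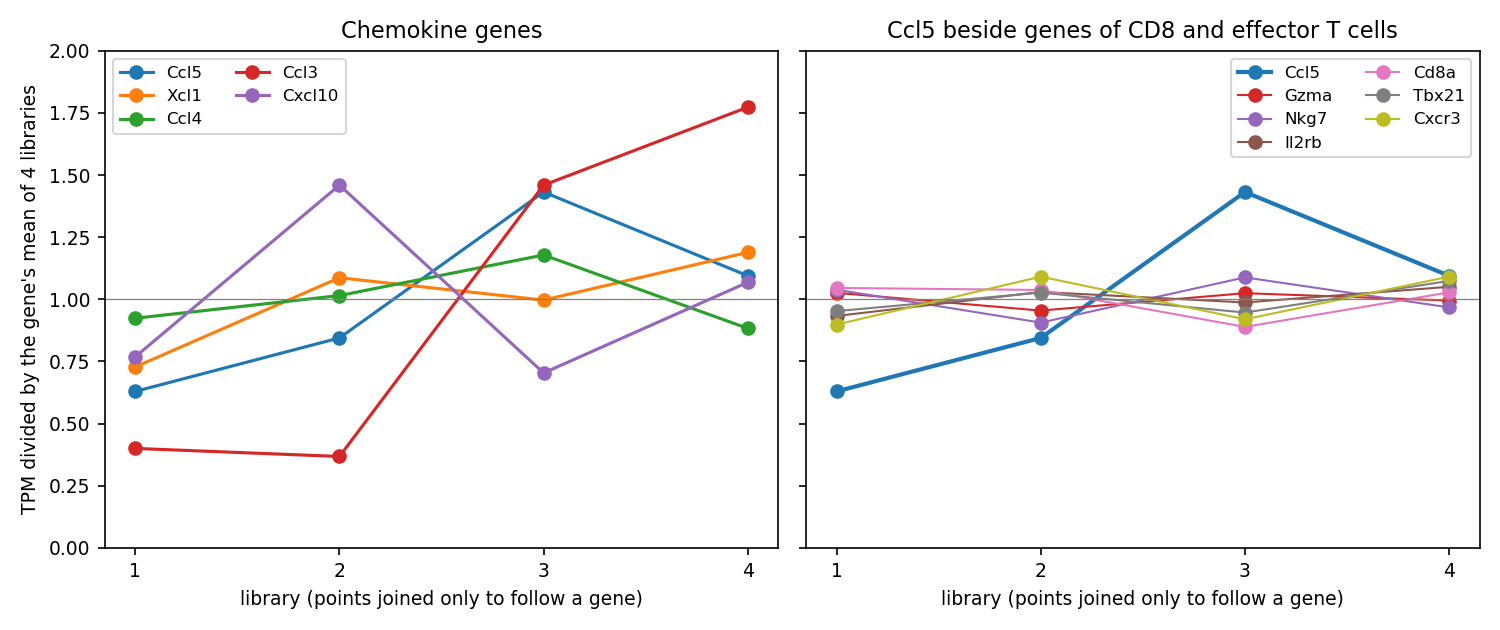
Each point is the TPM of a gene in a library divided by its mean over the 4 libraries; the left panel shows the 5 chemokines and the right panel Ccl5 beside Gzma, Nkg7, Il2rb, Cd8a, Tbx21 and Cxcr3. Ccl5 ran from 0.629 to 1.43 times its mean, a wider range than that of any other gene in the right panel. Some effector genes not drawn there also varied. The ratio of the highest to the lowest library was 26.9 for Gzmk, 1.93 for Ifng and 1.90 for Tnf, against 2.27 for Ccl5.

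The spread between libraries was set against all genes with edgeR's goodness-of-fit test, which asks whether a gene varied more than the trend for genes of its abundance. Of the 5 members, 3 passed the filter on low counts and 2, Ccl3 and Cxcl10, did not. Of those 3, Ccl5 was called and Ccl4 and Xcl1 were not, where 1.40% of 13118 tested genes were called. Since the spread of Ccl5 was known when it was chosen, nothing is read from this call. The call of Ccl5 was lost without library 1 and without library 3, where edgeR's adjusted p was 0.163 and 0.540. On the log2 CPM scale (counts scaled to library size by TMM) Ccl5 lay at -0.55, -0.16, 0.57 and 0.14 relative to its mean in libraries 1 to 4, a range of 1.11. The range was 0.58 for Xcl1 and 0.43 for Ccl4, against a median of 0.27 over all tested genes. Of 2462 other tested genes whose mean TPM lay within 2-fold of that of Ccl5, 14 had a ratio of the highest to the lowest library at least as large, and the median of that ratio was 1.16. Because Ccl5 was chosen with its spread known, its place among these genes is description only.

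**Figure D3:**
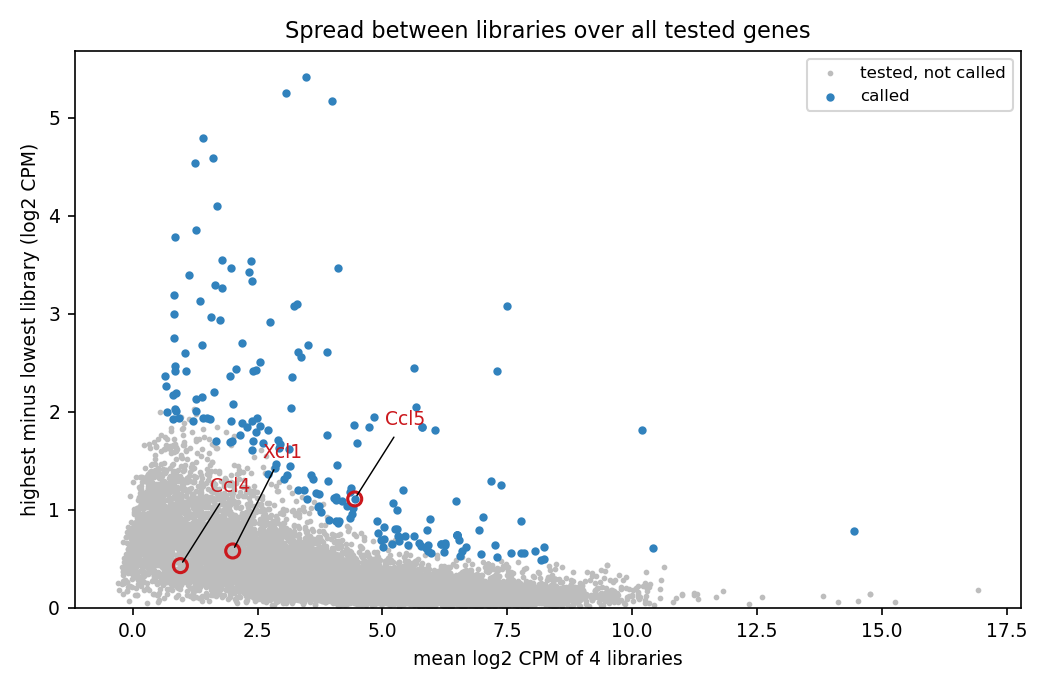
Each dot is a tested gene, with its mean log2 CPM on the horizontal axis and the difference between its highest and lowest library in log2 CPM on the vertical axis; called genes are blue, and Ccl5, Xcl1 and Ccl4 are circled. Ccl5 (1.11) lies among the called genes, Xcl1 (0.58) and Ccl4 (0.43) among the rest.

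The transcripts behind these levels were mostly the annotated coding ones. Ccl5 has 2 annotated transcripts. The coding transcript, with 3 exons, held 98.9% ± 0.509 of the gene in the deposited percent values, and a retained-intron form 1.15% ± 0.509 (SD, n = 4). Libraries 1 to 4 gave the retained-intron form shares of 1.48%, 0.520%, 0.950% and 1.63%, so the high level of library 3 was that of the coding transcript, at 72.4 TPM. Ccl3, Ccl4 and Xcl1 have 1 annotated transcript each. Cxcl10 has 4. The coding transcript with 4 exons held 79.2%, 89.8%, 52.4% and 69.4% in libraries 1 to 4, and a long retained-intron form held 20.8%, 4.30%, 7.23% and 30.6%. These shares rest on 38.3 and 15.3 estimated counts in all. Another coding form summed to 1.46 counts and a short retained-intron form to 0.890. Those 0.890 counts, all in library 3, made 40.4% of the gene's TPM, because TPM divides by length. Cxcl10 therefore stood at 7 counts there against 16 in library 4, while its TPM differed less.

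The second deposited quantification of the same libraries gave the same order for the leading genes. Ccl5 had 47.1, 62.6, 103.9 and 84.3 TPM in libraries 1 to 4, with a mean of 74.5 ± 24.8, again highest in library 3 and lowest in library 1. The means were 10.9 ± 2.18 TPM for Xcl1, 4.24 ± 0.821 for Ccl4, 1.00 ± 0.538 for Ccl3 and 0.861 ± 0.462 for Cxcl10 (SD, n = 4 each). There Ccl3 had 7, 3, 9 and 11 counts in libraries 1 to 4, so library 1 was closer to library 3 than in the first quantification. No stretch of 31 bases of the Ccl3 or Ccl4 transcripts occurs in transcripts of another annotated gene, and 0.539% of those of Ccl5 do. For Xcl1 the share was 14.2%, all with Gm20743 on the opposite strand, and for Cxcl10 4.47%, all with Art3 on the opposite strand. Gm20743 and Art3 had 0.00750 and 0.235 TPM. No source used here states whether counting used strand, so reads of each pair cannot be told apart in the shared part.

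Most other chemokine genes were at or near 0. Of 21 CC ligands, 4 reached a mean of 1 TPM and 1, Ccl5, reached 10 TPM, with a median over the list of 0.0200 TPM. Besides Ccl5 and Ccl4 these were Ccl25, known for drawing cells to thymus and gut, at 8.31 ± 0.455 TPM, and Ccl27a, a skin chemokine, at 4.13 ± 0.723 TPM (SD, n = 4). Both have values in every library, at 7.86 to 8.79 TPM for Ccl25 and 3.05 to 4.62 TPM for Ccl27a. There were no counts in any library for 9 CC ligands, among them Ccl17, Ccl19, Ccl20 and Ccl21a, where the limit of 3 counts that a count of 0 allows is 0.173 to 0.206 CPM. Of 17 CXC, XC and CX3C ligands, Xcl1 alone reached a mean of 1 TPM. Cxcl9, which like Cxcl10 binds Cxcr3 and responds to interferon gamma, had 0.163 ± 0.102 TPM and Cxcl2, a neutrophil attractant, 0 to 1.12 TPM. Cxcl11, another Cxcr3 ligand, had no counts. Over all mouse genes 12776 reached a mean of 1 TPM.

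Ccl5, Ccl3 and Ccl4 lie in a cluster of CC chemokine genes on chromosome 11. The start of Ccl3 is 119 kb and that of Ccl4 132 kb from the start of Ccl5. Between them lie Ccl9 and Ccl6, chemokine genes of myeloid cells, which had 0.260 ± 0.241 and 0.620 ± 0.371 TPM (SD, n = 4). Ccl9 and Ccl6 had their lowest values in library 3, at 0 and 0.180 TPM, where Ccl5 and Ccl4 had their highest. On the other side of Ccl5, Heatr9 had 0.543 ± 0.144 TPM, and Taf15, a gene for an RNA-binding protein, had 48.3, 51.1, 53.9 and 48.1 TPM, close to Ccl5 in mean level but with a much narrower range.

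**Figure D4:**
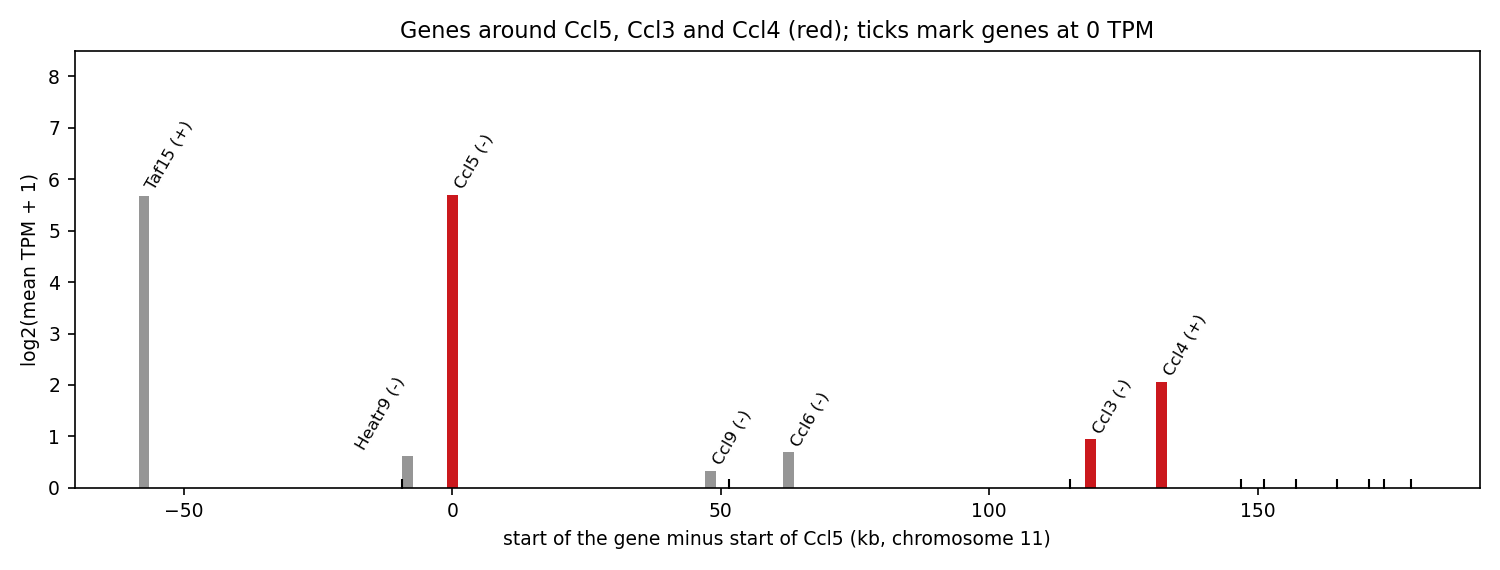
Bars give log2(mean TPM + 1) of the genes on chromosome 11 within 60 kb of the span from Ccl5 to Ccl4, placed by the distance of their start from that of Ccl5; red bars are Ccl5, Ccl3 and Ccl4, signs give the strand, and ticks mark genes at 0 TPM. Ccl5 and Taf15 stand high and the chemokine genes between Ccl5 and Ccl4 are all under 1 TPM in mean.

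Receptor genes for these chemokines were examined beside them. Cxcr3, the receptor of Cxcl10, had 9.42, 11.4, 9.64 and 11.4 TPM in libraries 1 to 4. The values for Cxcr3 overlapped those of Xcl1 in level, and its lowest library was library 1. Ccr1 and Ccr3, receptors of Ccl5, had 0.0525 ± 0.0340 and 0.250 ± 0.110 TPM, Xcr1, the receptor of Xcl1, 0.0200 ± 0.0245 TPM (SD, n = 4), and Ackr1 had no counts. The decoy receptor Ackr2 had at most 0.270 TPM.

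Likeness to Ccl5 was measured as the root mean square difference of centred log2 CPM over the 4 libraries, among 11957 tested genes with a mean of at least 1 TPM. Among the nearest genes were Gm16574 (0.035), Gm17072 (0.048) and Gm8116 (0.078), all annotated as processed pseudogenes, for which reads could be split with a near-identical copy, and Gm37809 (0.078), a transcript of unproven status. None of these 4 was called. Gm16574 rested on 12 to 31 counts per library. In the second quantification Gm16574, Gm17072 and Gm37809 were highest in library 4, where Ccl5 was highest in library 3. Gm8116 had 3.24e-09 TPM in library 2 there. For Ccl4 the nearest were Snph, Rpp21 and Gm12346, and for Xcl1 they were Cdkl2, Gm7609 and 2700097O09Rik, at 0.022 to 0.043, and none was called. With 4 libraries and this many genes, close patterns are a description only.

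Regulators known to act on these chemokine genes were all measured. All 14 reached 1 TPM and 10 reached 10 TPM, and none was called in edgeR's test, where 2, Zeb2 and Zfp36, had an unadjusted p under 0.05, beside 603 of all 13118 tested genes. Klf13, a factor known for late Ccl5 transcription in T cells, had 150.8, 151.3, 156.1 and 176.2 TPM in libraries 1 to 4. Irf1, an interferon factor that acts on Cxcl10, averaged 160 ± 11.6 TPM, Runx3, a CD8 lineage factor, 49.5 ± 4.42, and Tbx21, which encodes T-bet, 5.09 ± 0.313 TPM (SD, n = 4). Tbx21 had 4.85, 5.23, 4.82 and 5.47 TPM in libraries 1 to 4, so its lowest value fell where Ccl5 was highest. Zfp36, whose protein speeds the decay of cytokine RNAs, had 58.4, 59.6, 69.6 and 82.5 TPM.

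Of 20 effector and memory genes, 16 reached 1 TPM, 17 were tested with edgeR and none was called, with 0 at an unadjusted p under 0.05. In 4 of the 20, namely Gzmk, Ifng, Fasl and Cxcr6, library 1 was lowest and library 3 highest, as for Ccl5. That held for 6 of 18 early response genes, 2 of 14 regulators, 1 of 15 interferon targets and 0 of 10 naive T cell genes. The share over all tested genes was not counted, so nothing particular to effector genes is read from this. Of the 20 effector and memory genes, Il2rb, Id2, Klrd1, Nkg7, Ly6c2 and Gzma led with means of 55.3 to 32.4 TPM. Gzma, which encodes granzyme A, had 33.2, 30.9, 33.2 and 32.2 TPM, so Ccl5 stood at 0.968, 1.40, 2.20 and 1.74 times Gzma in libraries 1 to 4. Against Cd8a, the CD8 co-receptor gene, Ccl5 stood at 0.250, 0.339, 0.670 and 0.443. Nkg7, a cytotoxic granule gene, had 50.8, 44.3, 53.2 and 47.3 TPM. The 4 effector genes with the same lowest and highest library as Ccl5 were named after their values were seen. Ifng, which encodes interferon gamma, had 2.98, 5.37, 5.76 and 5.05 TPM, a ratio of library 3 to library 1 of 1.93. Fasl, which encodes the Fas ligand, had 3.09, 4.80, 5.52 and 4.76 TPM, a ratio of 1.79. Gzmk had 0.150, 0.470, 4.03 and 2.15 TPM. Gzmk encodes granzyme K, another cytotoxic granule protease, and its counts in libraries 3 and 4 had Poisson intervals above those of libraries 1 and 2. Gzmk did not pass the filter on low counts, and without the filter edgeR's adjusted p for it was 3.61e-05. Since Gzmk was named after its values were seen, nothing is read from this call.

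**Figure D5:**
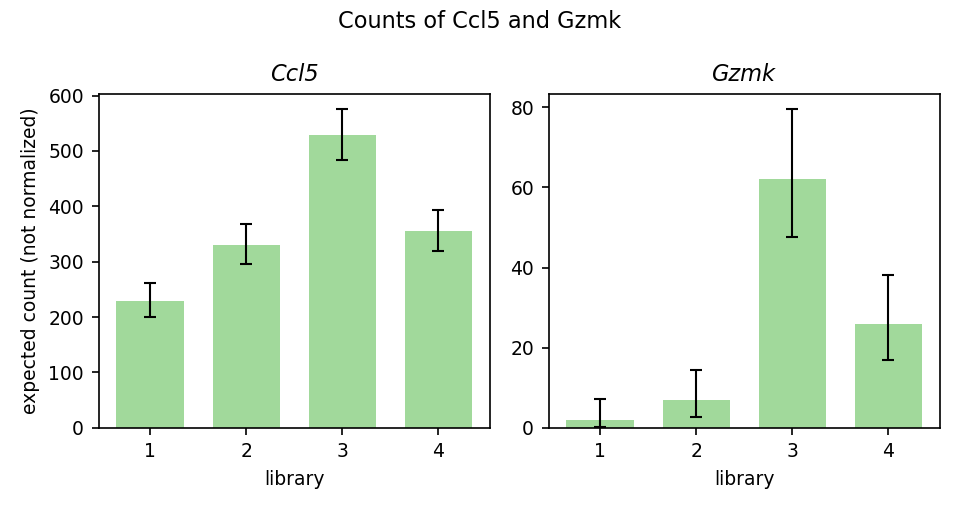
Bars give the expected counts of Ccl5 and Gzmk in libraries 1 to 4, not normalized, with exact 95% Poisson intervals; each panel has its own axis from 0. Both were lowest in library 1 and highest in library 3, and Gzmk had 2, 7, 62 and 26 counts.

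Genes that share inducers with these chemokines were examined by list. Of 15 interferon targets, 13 reached 1 TPM and none of the 14 tested with edgeR was called, with 1 at an unadjusted p under 0.05. Irf7, an interferon-induced transcription factor, was lowest in library 3 at 11.6 TPM, against 16.2 to 18.3 TPM in the other libraries, and Cxcl10 was lowest there too. Of 18 early response genes, which follow receptor engagement or handling, all reached 1 TPM and 4 were called, where 1.40% of all tested genes were, namely Fos, Fosb, Nfkbia and Tnfaip3, of which Fos and Fosb alone were called with spike-in scaling or a common dispersion. Fos, an AP-1 subunit, had 57.6, 83.1, 117.02 and 141.4 TPM in libraries 1 to 4. Nfkbia and Tnfaip3, inhibitors of NF-kappaB signalling, were lowest in library 4, at 92.0 and 451 TPM. Library 1, where Ccl5 and Xcl1 were lowest, was also lowest for 13 of the 18 early response genes. The same held for 8 of 14 regulators, 9 of 20 effector and memory genes and 7 of 10 T cell markers. It held for only 1 of 15 interferon targets and 1 of 10 naive T cell genes. The share over all tested genes was not counted, so nothing particular to early response genes is read from this. Whether handling had a part in the chemokine levels was not tested. Naive T cell genes were high and even, with all 10 above 10 TPM and none called by edgeR or at an unadjusted p under 0.05.

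The cells carried the markers of T cells. All 10 T cell markers exceeded 10 TPM, with a summed level of 2249 to 2353 TPM. Cd4 had 77.9, 84.4, 93.8 and 85.0 TPM and Cd8a 128, 127, 109 and 126 TPM, so library 3 had the most Cd4 and the least Cd8a. Markers of other cell types that can make these chemokines were read as well, among them Lyz2 of monocytes and macrophages at 15.4 ± 0.603 TPM (SD, n = 4). Of 6 natural killer markers, 5 reached 1 TPM, and none was at 0 in all libraries. Their sums were 22.7, 21.3, 20.9 and 28.8 TPM in libraries 1 to 4, lowest in library 3. Of the 6, 3 were themselves lowest in library 3, namely Ncr1, Tyrobp and Fcer1g. Klrb1c and Eomes were higher in library 3 than in library 1, at 3.55 against 3.20 TPM and 8.57 against 6.57 TPM. Of 10 monocyte and macrophage markers, 6 reached 1 TPM, and their sums of 33.0, 36.6, 29.3 and 34.8 TPM were also lowest in library 3. Of 7 platelet markers, 2 reached 1 TPM, Itgb3 and Itga2b, which made most of the sum of 34.5 to 38.7 TPM, while Pf4 was at 0 in libraries 1 to 3 and Treml1 in all. Of 6 dendritic markers, 2 reached 1 TPM, with sums of 2.08 to 5.37 TPM, and no basophil or mast cell marker of 4 did. Libraries 2 and 4 stood apart in the marker sums of other cells. The 7 neutrophil markers summed to 29.9 TPM in library 2 against 9.54 to 10.8 TPM elsewhere. S100a8 and S100a9 made most of the sum in library 2, at 11.4 and 13.3 TPM. Of the 7 markers, 3 were highest in library 2 and 1 was lowest there. The 8 B cell markers summed to 134 TPM in library 4 against 10.97 to 16.4 TPM, and the 6 erythroid markers to 633 TPM there against 15.3 to 62.5 TPM. Without library 4 the mean of Ccl5 was 49.5 TPM, and without library 2 it was 53.7 TPM. The part of these cell types in the chemokine values was not tested.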

How the data were processed

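Total RNA was sequenced in 4 libraries of 1 group. Per the labels and the notes deposited beside the tables, the build is mm10 with annotation M21. No source used here names the programs. The deposited expected counts are estimates and not normalized. The deposited TPM divide by effective length and are scaled over all targets, so a gene shares its total with all other RNAs. The deposited percent values give a transcript's share of its gene. The second quantification was summed per gene. Any effect of CAST alleles on read assignment was not examined.

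Totals were 14584388 to 17335895 counts. The 26248 numeric identifiers (at most 8.75e-05% of counts) and 97 spike-ins (0.299% to 0.347%) stayed out of tests. Rounded counts were tested with edgeR 4.0.16 in R 4.3.3 (intercept only, TMM, filterByExpr, trended dispersion, goodness-of-fit, Benjamini-Hochberg at 0.05), a procedure tested on simulated data. Log2 CPM used a prior count of 2. DESeq2 1.42.0 gave alternative size factors; Python 3.11.15, scipy 1.17.1 and pandas 2.3.3 were used. Intervals are exact (95%) and cover counting error only.

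The members and lists were chosen with earlier results of these data known. Named genes were the members with their transcripts, up to 6 of the highest genes of each list, list genes called or at 0, and the genes nearest in pattern (5 for Ccl5, 3 for other tested members). Tbx21, Gzmk, Ifng, Fasl, Cxcr6, Zeb2, Ccl9, Heatr9 and Taf15 fall outside that rule and were chosen after their values were seen. The NF-kappaB consensus was an alternative chosen after seeing the data. Results for some genes are not reported here.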

Additional observations from a re-analysis of the deposited data

Results flagged for a closer look

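Among 48 genes examined for a library far from the others, 2 met Dixon's criterion for 4 samples, and chance alone flags about 1 in 20. Ackr2, the decoy receptor of CC chemokines, had 0.270 TPM in library 4 against 0 to 0.0200 TPM in the other libraries. Its values rest on 5 counts over all libraries. Ccl27a had 3.05 TPM in library 3 against 4.40 to 4.62 TPM in the others. None of the 5 chemokine genes Ccl5, Ccl3, Ccl4, Xcl1 and Cxcl10 met it.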

How the results depend on the processing

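The number of genes called by edgeR's goodness-of-fit test was 183. It was 279 with no filter, where more genes are tested, and 353 with a common dispersion, and that cause was not tested. Leaving out each library in turn gave 116 to 146 genes. DESeq2 size factors gave 180, spike-in scaling 123 and the second quantification 192. Of the 183 genes, 180 were called again with DESeq2 size factors, 121 with spike-in scaling and 113 in the second quantification. With no filter 145 of them were called again, with a common dispersion 147, and with a library left out 85 to 130. Ccl5 was called under each of these settings except without library 1 and without library 3, and Ccl4 and Xcl1 under none. The ratio of library 3 to library 1 for Ccl5 stayed between 2.16 and 2.24 under 5 other scalings, against 2.27 as reported. Rescaled to protein-coding genes alone, the mean of Ccl5 was 144 TPM, since all other RNAs then leave the total, and leaving out single libraries gave 43.7 to 57.4 TPM. Of the effector genes, Gzmk was called with no filter, and of the regulators, Zeb2 with a common dispersion. Of the early response genes, 2 were called with spike-in scaling or a common dispersion and 3 without library 1 or library 4. A pseudocount of 1 on TPM lowered the ratio of library 4 to library 2 for Ccl3 to 1.97. Calls of single list genes were examined under these settings after the data had been seen. Depth limits Ccl3 and Cxcl10 most, with 39 and 56 counts over all libraries. Mean CPM was not set beside mean TPM, as the scales differ. No paired analysis was possible because there is 1 group.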
